A study of Nannochloropsis oceanica with 6 samples.

Results

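The gene IDs described here sit at the extremes of 4 nuclear ID prefixes of Nannochloropsis oceanica: the last 20 IDs of NO06, the first 20 of NO18, the last 20 of NO09 and the first 20 of NO30. These 80 IDs, of 10493 in the count table, were chosen because earlier results of the same data showed them to differ between 2 mutant lines. The contrast of line 1 with line 2, and for NO06 also the contrast of the lines with wild type, are therefore given as descriptions with no test. N. oceanica is a unicellular marine alga of the stramenopiles, used in research on photosynthesis and oil production. Polyadenylated RNA was sequenced from 6 libraries of strain IMET1, 2 from each of NoPAC4 knockout line 1, NoPAC4 knockout line 2 and the wild type (WT). All cells had grown for 5 days under low light (50 µmol photons, given per m2 and second in the labels), and the labels give both 23 °C, in the treatment text, and 25 °C, in the growth text. The labels do not say what the name NoPAC4 stands for, how the knockouts were made, whether each line is a clone, or whether replicates were separate cultures, so the spread between replicates may be technical. No source pairs nuclear IDs with gene names, so the level of NoPAC4 itself was not checked here.

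A read count measures how much polyadenylated transcript of a gene a library holds, and transcript level depends on whether the gene is present, how often it is transcribed and how fast its RNA decays. In many genome annotations neighbouring ID numbers mark neighbouring genes, and in many eukaryotes genes near the tips of chromosomes are weakly transcribed and repeated. No source used here states that the NO prefixes are chromosomes or that ID order is genome order, and DNA was not measured. Gene functions cannot be given, because 0 of the 80 IDs matched the reference gene table.

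The libraries held 13956855 to 16311248 counts each, and a level is given below in reads or in CPM (read counts scaled to the TMM library size). Replicates lay farther apart in WT than in the lines: across 7099 genes, the SD of the between-replicate log2 ratio was 0.16 for line 1, 0.22 for line 2 and 0.45 for WT. WT replicate 2 lay at 28.0 on the first principal component (60.7% of the variance), while the other libraries lay between -13.6 and 6.94. An ID is called readable below when it had at least 10 reads over the 6 libraries, and apart when the 2 libraries of each group did not overlap and the group means differed at least 1.5-fold. Of the 80 IDs, 47 were readable and 14 had 0 reads in every library. A weak ID could become readable, or enter a test, through the group in which it is higher, so counts over readable IDs are descriptions, and sums over all 20 IDs are given beside them.

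Transcript levels were low at all 4 ends. The ends were chosen on ratios between groups and not on level, but level is not independent of that choice. The mean over the 6 libraries includes the groups that were lower, and ratios of few reads vary more widely. The medians and ranks below are therefore descriptions. Corrected for gene length (deposited TPM, mean over the 6 libraries), the median ID stood at 1.23 TPM at the end of NO06, 0.548 TPM at the start of NO18, 0.800 TPM at the end of NO09 and 0.449 TPM at the start of NO30, against 44.6 TPM over the whole table. The 20 IDs farther inward had medians of 44.6, 3.65, 10.1 and 21.8 TPM at NO06, NO18, NO09 and NO30. Among the 56 other 20-ID ends of the 30 prefixes, the median of an end ran from 0.929 to 71.9 TPM, and 1 of them, the first 20 IDs of NO01, lay below the end of NO06. No other end lay below NO18, NO09 or NO30. Non-whole estimated counts, which arise where reads are divided among similar sequences, were found at 17.5% of the 80 IDs and 23.3% of all IDs (tolerance 0.002). An ID with 0 reads cannot show them, and 14 of the 80 IDs had 0 reads, against 191 of all 10493. These shares therefore do not compare how much sequence is shared.

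**Figure D1:**
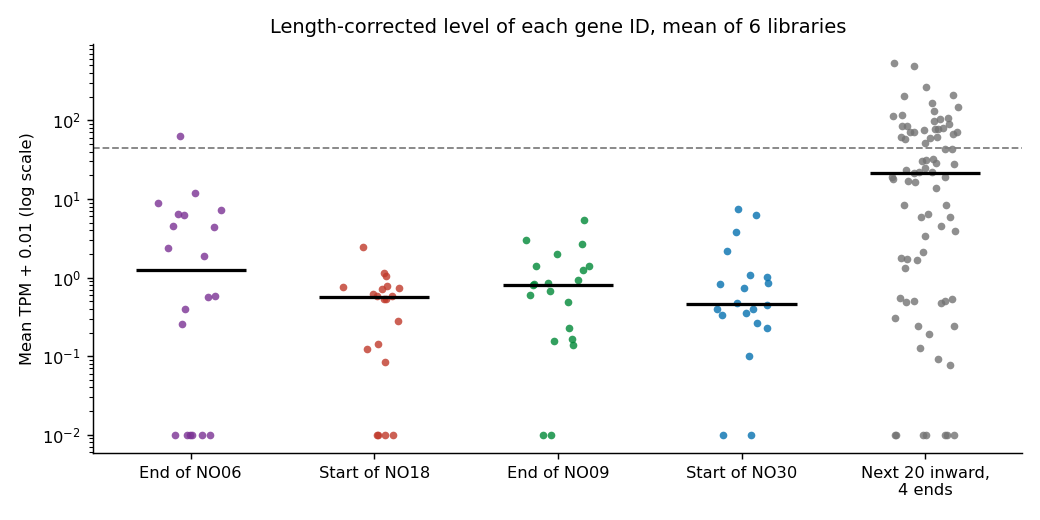
Mean TPM plus 0.01 over the 6 libraries (log axis) for each gene ID of the 4 ends (coloured points) and for the 80 IDs next inward (grey points). Black bars are medians and the dashed line is the median of all 10493 IDs, 44.6 TPM; the medians of the 4 ends lie between 0.449 and 1.23 TPM.

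At the end of NO06, a run of IDs was read in both knockout lines and in neither WT library. The run holds the last 18 IDs other than NO06G04710, 6 of which had 0 reads everywhere. Summed over these 17 IDs, the level was 102 and 98.6 CPM in line 1, 28.2 and 31.6 CPM in line 2 and 0 CPM in both WT libraries. The 2 lines did not overlap, and line 1 was 3.36-fold above line 2. These 17 IDs were picked from the pattern itself. Over all 20 IDs of the end, the sum was 153 and 145 CPM in line 1, 67.8 and 67.9 CPM in line 2 and 39.8 and 45.3 CPM in WT, with line 1 at 2.19-fold line 2, since the 3 other IDs were read in WT too. By the rule above, 8 of the 20 IDs were apart with line 1 higher than line 2, where 1.71% of all readable genes were. The same 8 were apart above WT in line 1 and in line 2, where 2.99% and 1.96% of readable genes were. These contrasts chose the IDs, so nothing is read from the shares.

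Counted inward from the last ID, the difference began at once. NO06G04750, the outermost ID, had 273 and 321 reads in line 1, 87 and 98 reads in line 2 and 0 reads in both WT libraries. Its level was 19.9 ± 1.78 CPM in line 1 and 6.47 ± 0.54 CPM in line 2 (SD, n = 2 each), 3.07-fold higher in line 1. Per length it was weak, at 0.867 TPM in line 1, 0.284 TPM in line 2 and 0 TPM in WT. The mean over all 6 libraries was 0.384 TPM. The count per TPM makes it 24.4 times as long as the median gene. Next to it, NO06G04740 had 8 and 6 reads in line 1, 1 read in each library of line 2 and 0 reads in WT. For NO06G04730 the reads were 25 and 30 in line 1, against 8 and 10 in line 2 and 0 in WT. All 3 outermost IDs thus had the same order, line 1 above line 2 above WT.

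The order then broke at 1 ID. NO06G04710, the fifth from the end, had 19 and 32 reads in line 1, against 19 and 40 in line 2 and 38 and 22 in WT, so all groups overlapped. On its outer side NO06G04720, and on its inner side NO06G04700, had 0 reads in all libraries. Inward of these, NO06G04690 returned to the pattern, with 27 and 20 reads in line 1, against 5 and 1 in line 2 and 0 in WT. NO06G04680 had 90 and 105 reads in line 1, against 16 and 22 in line 2 and 0 in WT, a level of 6.52 ± 0.55 CPM in line 1 and 1.33 ± 0.30 CPM in line 2 (SD, n = 2 each).

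A thinly read stretch followed. Of the 9 IDs of this end under 10 reads, 6 had 0 reads in every library, and the other 3 together held 8.07 reads in line 1, 2 reads in line 2 and 0 reads in WT. Within that stretch NO06G04620 stood out, with 236 and 245 reads in line 1, against 58 and 50 in line 2 and 0 in WT. Its non-whole counts were completed to whole reads by NO06G04600 in both libraries of line 1, so reads of this pair were divided by estimation. Their sums were 238 and 248 reads in line 1, against 58 and 50 in line 2 and 0 in WT, which leaves the order as it was.

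The innermost IDs of the run were NO06G04590 and NO06G04580. NO06G04590 had 16 and 14 reads in line 1, against 4 and 7 in line 2 and 0 in WT. NO06G04580 had the most reads of the run, 818 and 754 in line 1, 222 and 262 in line 2 and 0 in both WT libraries. Its level was 52.7 ± 4.33 CPM in line 1 and 16.9 ± 1.98 CPM in line 2 (SD, n = 2 each). Against a floor of 3 reads over both WT libraries, set in place of the count of 0, it was 557-fold higher in line 1 and 179-fold higher in line 2. The exact 95% counting interval of the ratio allows more than 3 reads for a count of 0. Its lower limits were 452-fold and 145-fold, below the values at that floor. For NO06G04750 the lower limits of that interval were 170.3-fold in line 1 and 55.1-fold in line 2.

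From 1 ID to the next, the difference stopped. NO06G04570, the ID just inside, had 84.9 and 111 reads in line 1, against 87.4 and 30.8 in line 2 and 102 and 109 in WT. Line 1 overlapped both other groups, while both libraries of line 2 lay below WT in CPM, by a narrow margin in replicate 1 (6.11 CPM, against 6.23 CPM in the lower WT library). NO06G04560 had 649 and 556 reads in line 1, against 460 and 449 in line 2 and 513 and 563 in WT, 1.27-fold higher in line 1 than in line 2, and a level of 31.8 ± 0.52 CPM in line 2 against 34.0 ± 3.89 CPM in WT (SD, n = 2 each). Over the 20 IDs farther inward the summed level was 919 ± 21.9 CPM in line 1, 945 ± 43.3 CPM in line 2 and 944 ± 57.4 CPM in WT (SD, n = 2 each), so the groups differed by less than the SD within line 2 or within WT. Among these 20, 1 ID was apart with line 1 above line 2, and 1, NO06G04500, with line 1 below it.

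Within the run, the ratio of line 1 to line 2 was above 1 at each readable ID. Across the 8 readable IDs other than NO06G04710 it ran from 2.61 to 7.52, with a median of 3.68. The 95% counting interval of the ratio (exact binomial) held the summed 3.36 at 6 of the 8 and lay above it at NO06G04680, where the ratio was 4.90 (3.45 to 7.15), and at NO06G04620, where it was 4.26 (3.45 to 5.30). Reads without molecular identifiers are not independent molecules, so these intervals cover counting error alone. In the whole table, 6 IDs had at least 5 reads in each of the 4 knockout libraries and 0 reads in WT, and 5 of them lay in this run. The sixth, NO04G00560, is no member and was named after its values were seen.

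**Figure D2:**
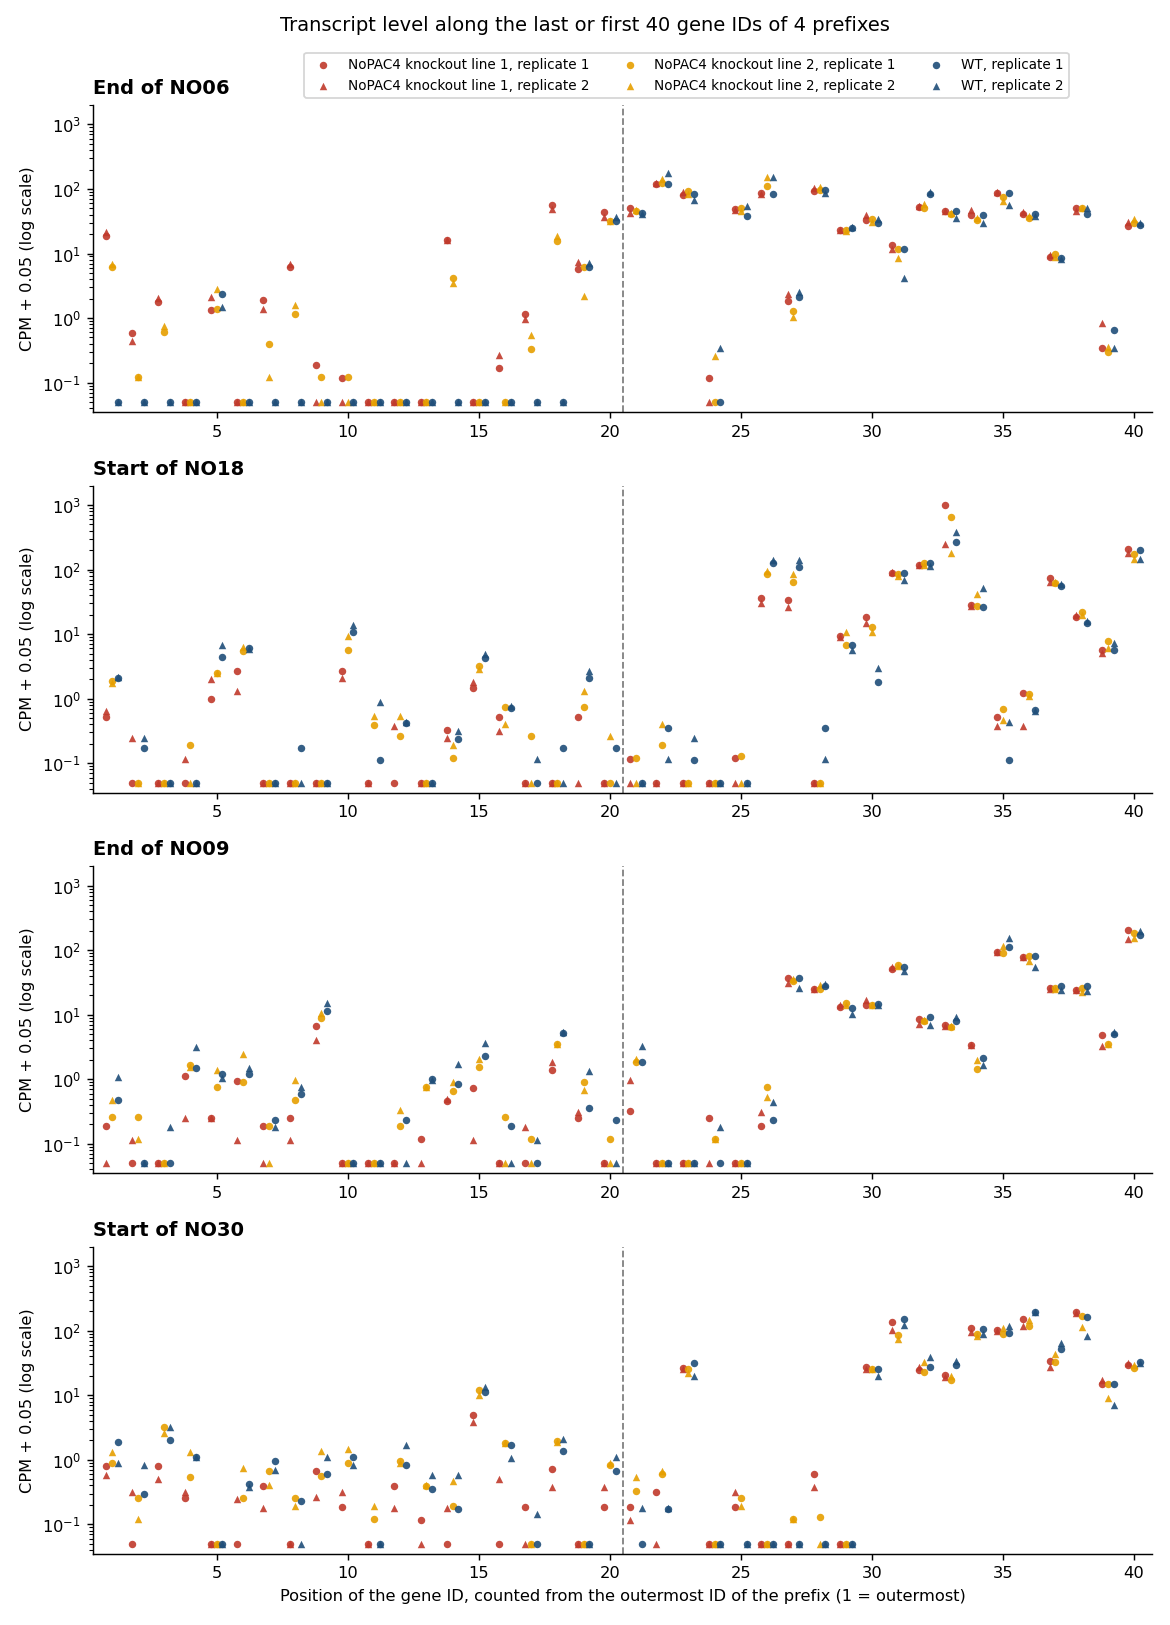
CPM plus 0.05 (log axis) of every ID in each library, against its position counted from the outermost ID of the prefix; the dashed line marks the border between the 20 members and the 20 IDs farther inward. At NO06 the WT points lie on the floor from position 1 to 18 except at position 5; at NO18, NO09 and NO30 the line 1 points lie below those of line 2 at most readable IDs up to positions 27, 26 and 22.

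At the start of NO30, line 1 lay below line 2 and WT while line 2 and WT overlapped. Summed over the 20 IDs, the level was 8.99 and 7.45 CPM in line 1, 24.9 and 25.5 CPM in line 2 and 24.0 and 28.7 CPM in WT. Line 1 stood at 0.326 of line 2 and 0.312 of WT, and line 2 at 0.957 of WT. Of the 15 readable IDs, 13 were apart with line 1 below line 2, where 2.25% of all readable genes were, a contrast that chose the IDs. Against WT, 12 were apart with line 1 lower, where 6.04% of all readable genes were; this comparison shares the line 1 libraries with the choice.

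The first ID already showed a difference, and it was a small one. NO30G00010 had 11 and 8 reads in line 1, against 12 and 18 in line 2 and 30 and 13 in WT. NO30G00020 had 0 and 4 reads in line 1, against 3 and 1 in line 2 and 4 and 12 in WT, so the lines overlapped. From the third ID the gap was wider, with 11 and 7 reads of NO30G00030 in line 1, against 45 and 37 in line 2 and 33 and 48 in WT. Line 2 and WT overlapped at this ID, and line 1 was at 0.211 of line 2.

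NO30G00040 had 3 and 4 reads in line 1, against 7 and 18 in line 2 and 17 and 16 in WT. Past it, NO30G00060 had 0 and 3 reads in line 1, against 3 and 10 in line 2 and 6 and 5 in WT. At NO30G00070 the reads were 5 and 2 in line 1, against 9 and 5 in line 2 and 15 and 10 in WT, which put line 2 below WT as well in CPM. NO30G00090 was an exception: its 9 and 3.23 reads in line 1 overlapped the 7.36 and 19 in line 2 and the 8.93 and 16 in WT.

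Farther in, the low level of line 1 continued. NO30G00100 had 2 and 4 reads in line 1, against 12 and 20 in line 2 and 17 and 12 in WT. NO30G00120 had 5 and 2 reads in line 1, against 13 and 12 in line 2 and 13 and 25 in WT, and NO30G00130 had 1 and 0 in line 1, against 5 and 5 in line 2 and 5 and 8 in WT. At NO30G00140 line 1 was apart from line 2 but overlapped WT, with 0 and 2 reads in line 1, against 2 and 6 in line 2 and 2 and 8 in WT.

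NO30G00150 held the most reads of this end and gives the most precise ratio. It had 71 and 57 reads in line 1, against 170 and 145 in line 2 and 181 and 202 in WT, with levels of 4.29 ± 0.77 CPM in line 1, 11.02 ± 1.24 CPM in line 2 and 12.1 ± 1.52 CPM in WT (SD, n = 2 each). The ratio of line 1 to line 2 was 0.390, with a 95% counting interval of 0.314 to 0.479. Between line 2 and WT the log2 change was -0.14 ± 0.20 (SE, edgeR adjusted p = 0.949).

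NO30G00160 and NO30G00180 shared reads, since their non-whole counts added up to whole reads in 3 libraries. Their sums were 10 and 12 reads in line 1, against 53 and 52 in line 2 and 48 and 46.6 in WT. In CPM line 2 lay above WT here, at 3.71 and 3.64 in line 2 and 2.93 and 3.04 in WT, while line 1 was at 0.681 and 0.790. NO30G00200, the last of the 20, had 2 and 5 reads in line 1, against 11 and 12 in line 2 and 10 and 16 in WT.

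Beyond the 20 IDs the pattern changed before it ended. NO30G00210 had 2 and 1 reads in line 1, against 4 and 7 in line 2 and 0 and 2 in WT, and NO30G00220 had 4 and 0 in line 1, against 7.86 and 9 in line 2 and 2 and 2 in WT. At this pair line 2 was above both line 1 and WT, while line 1 and WT overlapped, all on few reads. NO30G00230 then had 390 and 382 reads in line 1, against 366 and 317 in line 2 and 523 and 306 in WT, with line 1 at 1.08 of line 2 and within the range of WT. So the difference between the lines ran through NO30G00220, or through NO30G00200 with a minimum of 30 reads, while the difference between line 1 and WT ran through NO30G00200. Farther in, NO30G00280 went the other way, with 8 and 5 reads in line 1, while line 2 had 1.14 and 0 and both WT libraries 0.

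At the start of NO18 the 3 groups formed steps, with line 1 lowest, line 2 between and WT highest. The summed level of the 20 IDs was 9.40 and 8.69 CPM in line 1, 20.8 and 25.4 CPM in line 2 and 31.2 and 38.4 CPM in WT, and the libraries of no 2 groups overlapped. Line 1 stood at 0.392 of line 2 and 0.260 of WT, and line 2 at 0.664 of WT. Among the 10 readable IDs, 7 were apart with line 1 below line 2 and 1 with line 1 above it. Of all readable genes 2.25% and 1.71% were, and this contrast chose the IDs. Against WT, 9 were apart with line 1 lower, where 6.04% of all readable genes were. That comparison shares the line 1 libraries with the choice.

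NO18G00010, the outermost, had 7 and 9 reads in line 1, against 26 and 24 in line 2 and 34 and 32 in WT. The next 3 IDs had 0 to 8 reads in all. NO18G00050 had 14 and 30 reads in line 1, against 35 and 35 in line 2 and 72 and 102 in WT, so here line 2 was nearer to line 1. At NO18G00060 line 2 was instead near WT, with 39 and 19 reads in line 1, against 77 and 88 in line 2 and 100 and 89 in WT. Neighbours thus differed in where line 2 stood.

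NO18G00100 had the most reads of the 20, 39 and 31 in line 1, against 80.1 and 133 in line 2 and 175 and 212 in WT. Its levels were 2.35 ± 0.44 CPM in line 1, 7.46 ± 2.62 CPM in line 2 and 12.3 ± 2.26 CPM in WT (SD, n = 2 each). It shared reads with its neighbour NO18G00110 in 2 libraries, and the sums of the pair were 39 and 31 reads in line 1, against 85.0 and 140 in line 2 and 176 and 225 in WT. NO18G00110 on its own had 0 reads in both libraries of line 1, while line 2 had 4.89 and 7 and WT 1 and 12.7.

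The following IDs were weak and mixed. NO18G00120 had 0 and 5 reads in line 1, against 3 and 7 in line 2 and 6 and 6 in WT. NO18G00140 had 4 and 3 reads in line 1, against 1 and 2 in line 2 and 3 and 4 in WT, the single readable ID of the 60 at NO18, NO09 and NO30 where line 1 was apart above line 2, on 17 reads in all. NO18G00150 returned to the steps, with 21 and 27 reads in line 1, against 45 and 41 in line 2 and 68 and 75 in WT.

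NO18G00160 had 7 and 4 reads in line 1, against 10 and 5 in line 2 and 11 and 11 in WT, and the lines overlapped. The last readable ID of the 20, NO18G00190, had 7 and 0 reads in line 1, against 10 and 18 in line 2 and 33 and 40 in WT. Its level was 0.238 ± 0.337 CPM in line 1, 0.980 ± 0.396 CPM in line 2 and 2.31 ± 0.42 CPM in WT (SD, n = 2 each). The steps were again in the order line 1, line 2, WT.

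Past the 20 IDs, the steps continued at a far higher level and then ended. NO18G00260 and NO18G00270 had non-whole counts in all 6 libraries that summed to whole reads in 4, and together had 1023 and 860 reads in line 1, against 2154 and 2551 in line 2 and 3830 and 4290 in WT. Summed, they stood at 63.1 ± 9.28 CPM in line 1, 165 ± 19.7 CPM in line 2 and 257 ± 33.0 CPM in WT (SD, n = 2 each), at 0.246 of WT in line 1 and 0.641 of WT in line 2. These ratios lie near those of the 20 IDs outside them, 0.260 and 0.664. In line 1 against WT edgeR called both IDs lower, among 3 genes (0.0309%) called lower. In line 2 against WT it called neither, at log2 -0.57 and -0.72 (edgeR adjusted p = 0.149 and 0.213). DESeq2 gave adjusted p of 0.0326 and 0.0630. By the rule above, 1 of the 2 was apart with line 2 below WT. NO18G00280 had 6 reads in all, each of them in WT.

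The next pair turned the other way. NO18G00290 and NO18G00300 also had counts that summed to whole reads in all 6 libraries. Together they had 403 and 364 reads in line 1, against 277 and 303 in line 2 and 138 and 131 in WT. The sum was 3.03-fold higher in line 1 than in WT and 2.39-fold higher in line 2. Of the pair, only NO18G00300 was apart from WT. In line 2 against WT its log2 change was 2.32 (edgeR adjusted p = 0.0941, DESeq2 adjusted p = 3.4e-09), and that of NO18G00290 was 0.50. NO18G00310 differed by less than 1.5-fold between any groups, with 1289 and 1377 reads in line 1, against 1209 and 1117 in line 2 and 1423 and 1045 in WT. With a minimum of 10 reads, the stretch in which line 1 was apart below line 2 was broken after NO18G00110 by NO18G00120 and NO18G00140; with a minimum of 30 reads it ran through NO18G00270, and so did the stretch of line 1 below WT.

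At the end of NO09, the order of the groups was again line 1, line 2, WT, with wider spread. Summed over the 20 IDs, the level was 12.0 and 7.29 CPM in line 1, 20.5 and 25.0 CPM in line 2 and 26.2 and 35.7 CPM in WT. Line 1 stood at 0.424 of line 2 and 0.311 of WT, and line 2 at 0.734 of WT. Of the 11 readable IDs, 10 were apart with line 1 below line 2, where 2.25% of all readable genes were, a contrast that chose the IDs. All 11 were apart with line 1 below WT, where 6.04% of all readable genes were. The comparison with WT shares the line 1 libraries with the choice.

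Counted inward, NO09G04300 had 2 and 0 reads in line 1, against 3 and 6 in line 2 and 7 and 16 in WT. NO09G04270 had 16 and 3 reads in line 1, against 23 and 21 in line 2 and 23.7 and 47 in WT, and NO09G04260 had 3 and 3 in line 1, against 10 and 19 in line 2 and 19 and 15 in WT. At NO09G04250 the lines overlapped, with 13 and 1 reads in line 1, against 12 and 35 in line 2 and 19 and 22 in WT. In the summed level, too, the 2 libraries of line 1 lay apart, at 12.0 and 7.29 CPM.

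NO09G04220 held the most reads of this end, 97 and 61 in line 1, against 125 and 149 in line 2 and 186 and 235 in WT. Its levels were 5.31 ± 1.84 CPM in line 1, 9.59 ± 1.19 CPM in line 2 and 13.4 ± 2.83 CPM in WT (SD, n = 2 each). NO09G04230, beside it, had 3 and 1 reads in line 1, against 6 and 13 in line 2 and 9 and 11 in WT. Both had the libraries of line 1 below those of line 2 and WT.

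NO09G04180 was nearly unread in line 1, with 1 and 0 reads, against 10 and 10 in line 2 and 16 and 14 in WT. Its ratio of line 1 to line 2, 0.0487 with a 95% counting interval of 0.00115 to 0.299, was the lowest of this end and lay below the summed 0.424. NO09G04170 had the smallest difference between the lines, with 6 and 6.77 reads in line 1, against 8.64 and 12 in line 2 and 13.1 and 26 in WT. For NO09G04160 the reads were 10 and 1 in line 1, against 21 and 29 in line 2 and 37 and 55 in WT.

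The innermost members had the same order of means. NO09G04130 had 20 and 27 reads in line 1, against 50 and 49 in line 2 and 84 and 81 in WT, with levels of 1.57 ± 0.29 CPM in line 1, 3.46 ± 0.05 CPM in line 2 and 5.21 ± 0.12 CPM in WT (SD, n = 2 each). NO09G04120 had 3 and 4 reads in line 1, against 12 and 9 in line 2 and 5 and 20 in WT. Outside the 20, NO09G04100 still had line 1 lowest, with 4 and 14 reads in line 1, against 26 and 29 in line 2 and 30 and 49 in WT.

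After 4 IDs with 0 to 7 reads, NO09G04050 had 2 and 4 reads in line 1, against 10 and 7 in line 2 and 3 and 6 in WT, so that line 2 was highest. NO09G04040 then had 541 and 469 reads in line 1, against 472 and 501 in line 2 and 613 and 389 in WT, with line 1 at 0.995 of line 2. The difference between the lines thus ran through NO09G04050 and that between line 1 and WT through NO09G04100. Farther in, NO09G03970 went the other way, with line 1 apart above both line 2 and WT. Over the 20 IDs inward of the end, the summed level was 563 ± 45.4 CPM in line 1, 563 ± 13.8 CPM in line 2 and 601 ± 5.30 CPM in WT (SD, n = 2 each).

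**Figure D3:**
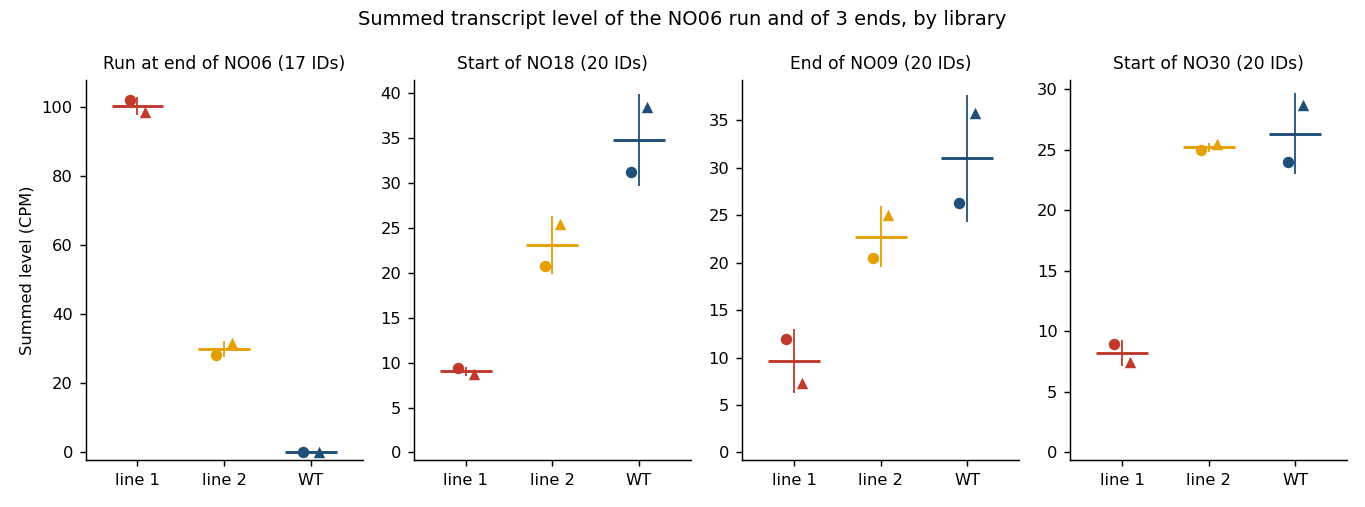
Summed CPM by library, from 0 upward, over 17 IDs for NO06 (the run, without NO06G04710, NO06G04570 and NO06G04560) and over all 20 IDs for the other 3 ends; circles are replicate 1, triangles replicate 2, horizontal bars the mean and vertical bars the SD (n = 2). Line 1 is highest in the NO06 run (102 and 98.6 CPM, with WT at 0) and lowest at NO18, NO09 and NO30, where it lies between 7.29 and 12.0 CPM.

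Set side by side, the shares of the WT level at NO18, NO09 and NO30 lay closer together in line 1 than in line 2, a difference that was not tested. Over these ends in that order, the summed level was 0.260, 0.311 and 0.312 of WT in line 1, and 0.664, 0.734 and 0.957 of WT in line 2. Ratios of line 1 to WT of single readable IDs with reads in both groups ran from 0.103 to 1.06 at NO18, 0.0360 to 0.398 at NO09 and 0.0823 to 0.519 at NO30. The 95% counting interval held the summed ratio at 7 of 10, 8 of 11 and 15 of 15 readable IDs. NO18G00110, with 0 reads in line 1, is counted among the 10.

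**Figure D4:**
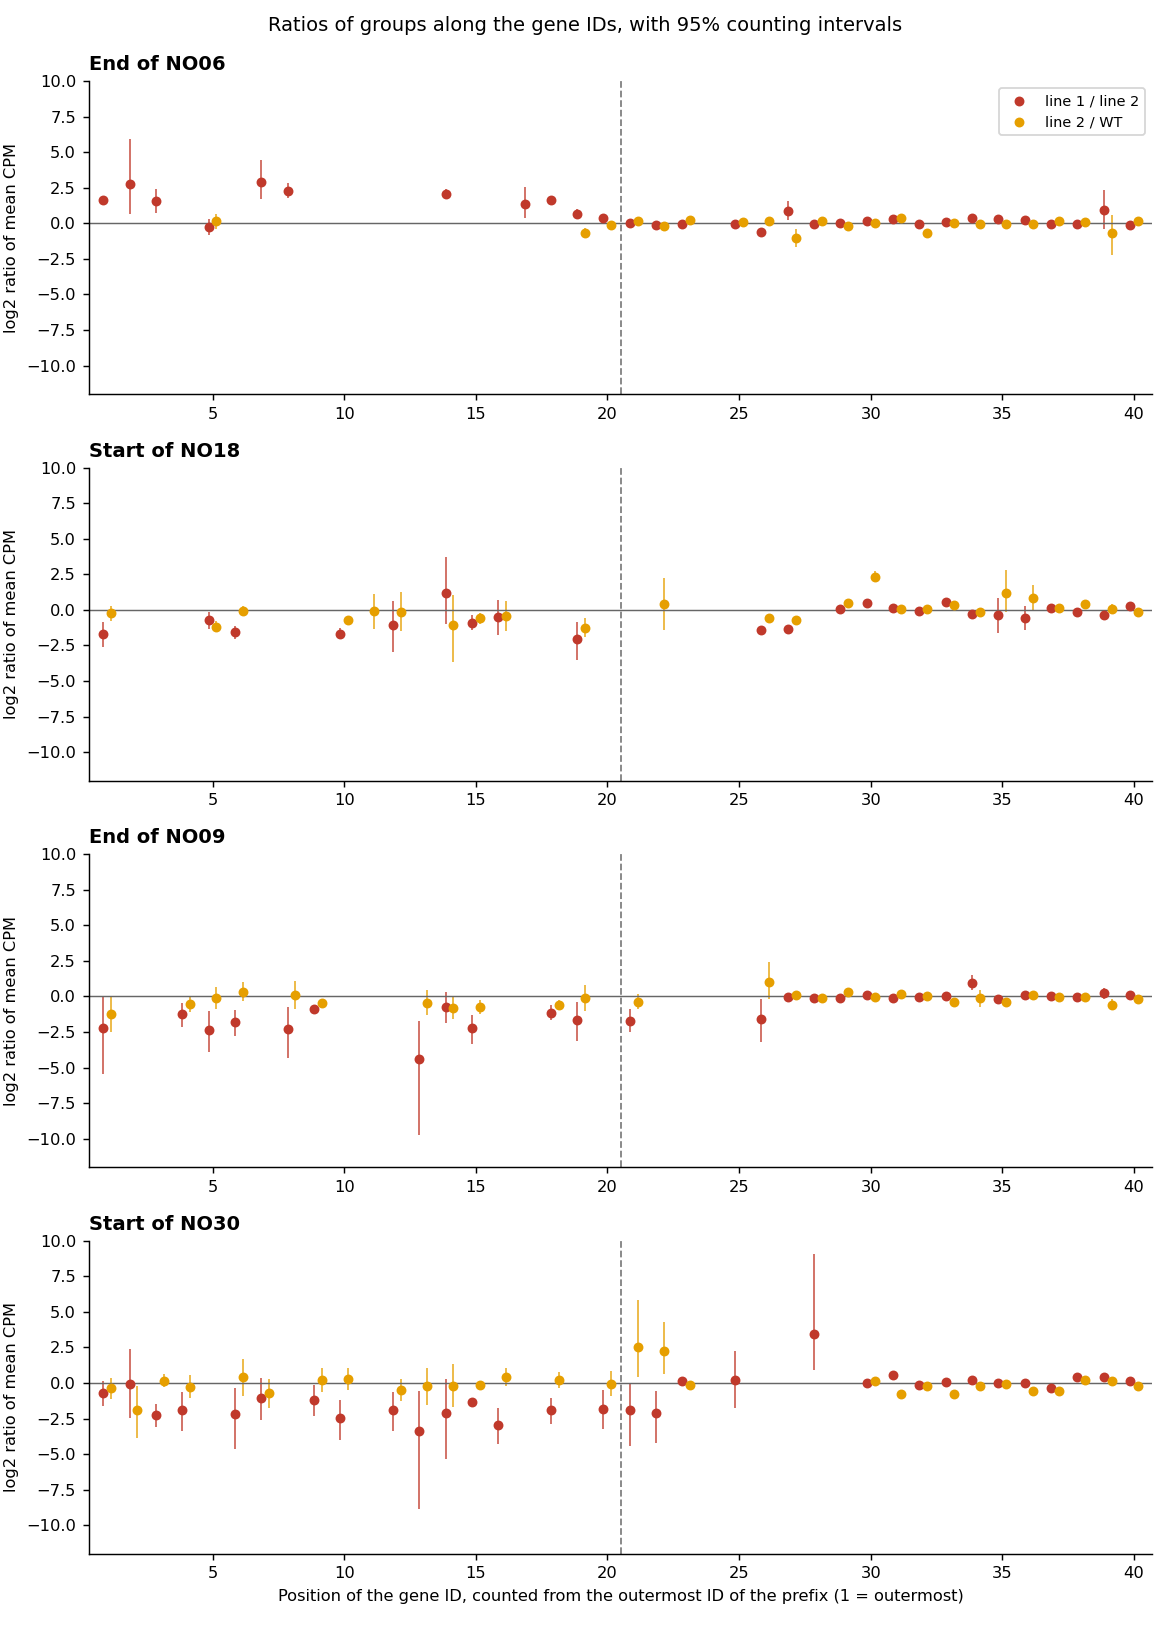
The log2 ratio of mean CPM of line 1 over line 2 (red) and line 2 over WT (yellow) for each readable ID with reads in both groups, against its position from the outermost ID; vertical bars are 95% counting intervals, and the dashed line marks the border of the 20 members. At NO06 the line 1 over line 2 points lie above 0 up to position 18 (folds of 2.61 to 7.52), except NO06G04710, which lies below 0. At the other ends these points lie mostly below 0. Inward of positions 18, 27, 26 and 22 they lie mostly nearer 0. Exceptions include position 26 of NO06, where line 1 was lower, and positions 34 of NO09 and 28 of NO30, where it was higher.

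Line 2 against WT is the comparison that the choice of NO18, NO09 and NO30 used least, although it shares the line 2 libraries with it. The fit over all 9712 tested genes (edgeR quasi-likelihood) held 27 of these 60 IDs. It called 0 of them, and DESeq2 and limma on TPM also called 0. DESeq2 gave an adjusted p to 9890 of the 10289 genes it fitted in this comparison. How many of the 60 IDs were among those 9890 was not counted. In the edgeR fit, 3 IDs had an unadjusted p below 0.05. All 3 were lower in line 2, where 8.66% of all tested genes were lower and 3.12% higher at that level. Over the whole table edgeR called 4 genes higher (0.0412%) and 0 lower (0%). DESeq2 called 0.354% of genes higher and 3.37% lower. Limma called 0.0618% higher and 0% lower on log2(TPM + 1), and 0.0824% higher and 0.0103% lower on log2(TPM + 0.1).

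At NO18 the log2 ratio of line 2 to WT was below 0 at 7 of 7 tested IDs, with a median of -0.59. At NO09 it was below 0 at 8 of 10, with a median of -0.45, and at NO30 at 5 of 10, with a median of 0.06. Over all tested genes it was below 0 at 4643 of 9712, with a median of 0.01. A weak ID could enter the test through the group in which it is higher, so these counts are descriptions. The 3 IDs with an unadjusted p below 0.05 were NO18G00050 at -1.17 ± 0.38, NO18G00100 at -0.72 ± 0.29 and NO09G04130 at -0.59 ± 0.24 (SE), with edgeR adjusted p of 0.265, 0.406 and 0.410. NO18G00050 was called without WT replicate 1 (-1.44, edgeR adjusted p = 0.0354), which leaves WT replicate 2 alone in its group; that fit called 1549 genes (15.8% of those tested), 957 of them lower (9.78%), against 4 genes with all libraries; without WT replicate 2 it was at -0.86 (edgeR adjusted p = 0.241).

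By the rule on overlap, line 2 was apart below WT at 5 of 10 readable IDs of NO18, 3 of 11 of NO09 and 2 of 15 of NO30, where 5.99% of all readable genes were. Without WT replicate 1 these counts were 6, 7 and 3, and without WT replicate 2 they were 3, 0 and 3. The summed level of line 2 was 0.601 of WT replicate 2 and 0.741 of WT replicate 1 at NO18, 0.636 and 0.866 at NO09, and 0.879 and 1.05 at NO30. With 2 libraries in each group, an exact permutation test of such a sum could not reach a p below 0.05, and none is given.

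The contrasts with line 1, and those of NO06, share libraries with the choice of the IDs, so calls in them are descriptions. In the same fit, line 1 against WT called 4 of 37 tested members, all of the NO06 run and all higher, where 0.103% of tested genes were called higher and 0.0309% lower, 0.134% in all. At an unadjusted p below 0.05 this comparison had 22 members lower and 7 higher, and 8.35% and 5.24% of tested genes. DESeq2 called 7 members of NO06 higher in line 1 than in WT, and 11 members lower, 6 at NO18, 3 at NO09 and 2 at NO30. It called 0.87% of all genes higher and 3.15% lower, and limma 0.0927% higher and 0.0103% lower. Line 2 against WT called 3 of the 37 tested members, also in the NO06 run and all higher, where 0.0412% of tested genes were called higher. DESeq2 called 5 members of NO06 higher in line 2 than in WT, where it called 0.354% of all genes higher.

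Which libraries entered changed these counts, for members and for all genes alike. Line 1 against WT called 2 genes, 1 of them a member, without line 1 replicate 2, and 3 genes, 2 of them members, without line 1 replicate 1. It called 8 members without WT replicate 2, when 214 genes (2.19%) were called, and 26 without WT replicate 1, when 3153 genes (32.2%) were. Line 2 against WT called 1 gene and 0 members without either library of line 2, 2 genes and 1 member without either library of line 1, and 6 members without WT replicate 1, when 1549 genes (15.8%) were called. Between the lines, edgeR called 0% of all genes, with 1.99% higher and 1.76% lower in line 1 at an unadjusted p below 0.05. DESeq2 called 0.0972% higher and 0.0583% lower, and limma on TPM 0%. This contrast chose the IDs, so the counts of members in it, given in the closing section, are descriptions.

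Among the 60 ends of 20 IDs, the 4 described here were chosen on the ratio of line 1 to line 2, so their place in it restates the choice and is given as a description. The log2 ratio of summed levels of line 1 to line 2 was 1.13 at NO06, -1.35 at NO18, -1.24 at NO09 and -1.62 at NO30, and -0.17 to 0.29 at the other 56 ends. For NO06 this sum includes NO06G04710, NO06G04560 and NO06G04570, which are not in the run. The log2 ratio of line 1 to WT, which shares the line 1 libraries, was 1.81, -1.94, -1.68 and -1.68 in the same order, and -0.68 to 0.37 at the other 56. The log2 ratio of line 2 to WT was 0.67, -0.59, -0.45 and -0.06 at the same ends, and -0.77 to 0.15 at the other 56, of which 1 lay below NO18, 3 below NO09 and 31 below NO30. At the opposite ends of the same prefixes, the log2 ratio of line 1 to line 2 was 0.11 at NO06, 0.05 at NO18, 0.06 at NO09 and 0.00 at NO30.

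**Figure D5:**
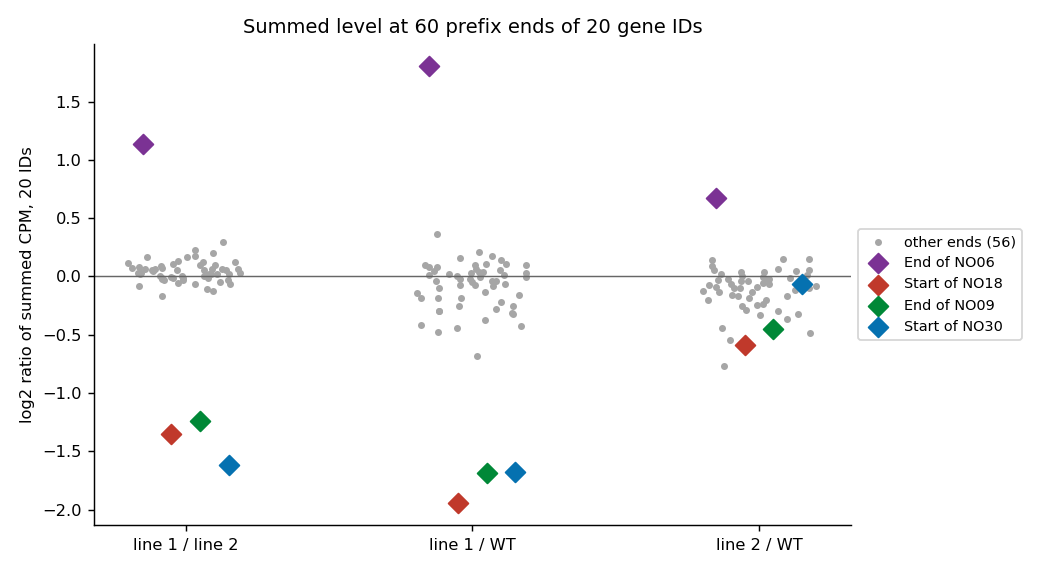
Log2 ratio of summed CPM over 20 IDs at each of 60 prefix ends, for line 1 over line 2, line 1 over WT and line 2 over WT; grey points are the 56 other ends and diamonds the 4 described here. For line 1 over line 2, the ratio that chose the ends, the diamonds lie at 1.13, -1.35, -1.24 and -1.62 and the grey points between -0.17 and 0.29; for line 2 over WT 3 of 4 lie within them.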

How the data were processed

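Polyadenylated RNA from 6 libraries was sequenced. The authors deposited estimated counts per gene ID, unscaled (20.1% of values are not whole), and TPM, scaled by the authors to gene length and library size, per the file headers. The submitters' processing notes name STAR and edgeR without versions; the counting program, genome build and annotation are not given in the sources used here, and the kit does not mark strand, per the labels' protocols. Replicate numbers follow the sample titles; the deposited column names number line 2 replicate 2 and both WT replicates otherwise (line 2 as 1 and 3, WT as 2 and 3).

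Expected counts were rounded and fitted with edgeR 4.0.16 (R 4.3.3): TMM, filterByExpr by group (9712 of 10493 IDs kept), robust quasi-likelihood with all 3 groups in 1 model and 3 residual degrees of freedom, Benjamini-Hochberg adjustment over all tested IDs and a threshold of 0.05. DESeq2 1.42.0 and limma 3.58.1 (on TPM plus a pseudocount of 1 or 0.1) were alternatives. Code was tested on simulated data. CPM uses TMM library sizes. Stretches end before 2 readable IDs in a row that are not apart. All readable IDs of the 4 ends, and those at each border, are named. The ends and lists were chosen with earlier results of these data known.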

Additional observations from a re-analysis of the deposited data

Results flagged for a closer look

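NO30G00160, at the start of NO30, had the libraries of the 2 lines on opposite sides of WT. In CPM, both libraries of line 1 lay below both WT libraries and both libraries of line 2 lay above them, and line 1 stood at 0.130 of line 2 in mean CPM. The reads were 0 and 7 for line 1, 25.3 and 25.5 for line 2, and 26.8 and 15.6 for WT. Line 2 stood at 1.34 of WT, with a 95% counting interval of 0.878 to 2.08, so no change in line 2 is shown. The difference between the lines chose the IDs and is a description. In line 2 against WT, edgeR called 0 of the 10 tested IDs of this end. The ID shares reads with NO30G00180, and their division between the pair was estimated.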

How the results depend on the processing

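Counts of called genes moved with the tool and with the libraries used, and the cause was not tested. For line 1 against WT, 13 genes and 4 members were called by edgeR, 398 genes and 18 members by DESeq2, 20 genes with the replicate block, and 2 to 3153 genes and 1 to 26 members with 1 library left out. For line 2 against WT, 4 genes and 3 members were called, 368 genes and 5 members by DESeq2, 9 genes and 5 members by limma on log2(TPM + 0.1), 3 genes and 2 members with the replicate block, and 1 to 1549 genes and 0 to 6 members with 1 library left out. For line 1 against line 2, the contrast that chose the IDs, so that calls describe them and test nothing, 0 genes and 0 members were called, 16 genes and 6 members by DESeq2, 0 genes with the replicate block, and 0 to 12 genes and 0 to 4 members with 1 library left out. In both comparisons with WT the highest counts came without WT replicate 1, where the lone WT library is assumed to vary like the other groups. Between the lines the highest came from DESeq2, and leaving out either WT library gave 12 genes and 4 members. The replicate numbers share nothing stated beyond a number, and the column names number 3 libraries otherwise than the titles, so the block and these correlations rest on the titles: deviations of same-numbered libraries correlated at 0.402 between the lines, 0.216 between line 1 and WT and 0.554 between line 2 and WT.

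With 1 knockout library left out, 8 to 9 IDs at NO06 were apart with line 1 above line 2, and 7 to 8 at NO18, 8 to 11 at NO09 and 12 to 14 at NO30 with line 1 below line 2. Over the other alternatives (library totals, TPM, 2-fold, 30 reads or 1 read) the counts were 7 to 9, 5 to 7, 8 to 12 and 10 to 15 in that order. Alternatives with WT libraries left out for the counts of line 2 below WT, and with a minimum of 30 reads for stretches, were chosen after seeing the data. Most IDs held few reads, so single IDs set their borders only to within the gaps between readable neighbours.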
